A study of Mus musculus with 19 samples.

Results

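The comparison set 3 left ventricle libraries of control mice after transverse aortic banding (TAB) against 3 left ventricle libraries of control mice that had no surgery. These 6 libraries were chosen by their labels, from 12 RNA-seq libraries in a series of 19 samples, and no library of the JP2NT-OE mice entered the main comparison. The control mice were littermates of JP2NT-OE mice and did not carry the transgene, which an a-MHC promoter drives in heart muscle. Banding was done on male mice at 9 weeks of age and the hearts were taken 3 weeks later, at 12 weeks. The baseline mice were unoperated littermates harvested at the same time, so pressure load cannot be told apart from surgery itself, since no sham-operated group was used here. The labels do not say that the replicates came from separate animals, and p-values therefore measure the spread between these libraries. In bulk tissue, fewer cells of a type and less RNA per cell cannot be told apart.

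Transverse aortic banding narrows the aorta and makes the left ventricle pump against a higher pressure. The ventricle answers with growth of its muscle cells, a return of genes used before birth, laying down of matrix and a shift in energy supply. Heart muscle is packed with mitochondria, whose own small genome encodes core subunits of the respiratory chain and of ATP synthase, and mitochondrial messenger RNAs carry poly(A) tails and so enter libraries made from polyA RNA.

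Each library gave an estimated read count and a TPM value (a share of all transcripts in the library, scaled for transcript length) for 96626 mouse transcripts, listed by Ensembl transcript identifier and length. The identifiers could not be paired with gene names here, so the results below describe transcripts by length, level and change. The marker check of the left ventricle label, the cell type markers and the gene lists could not be run for the same reason. Estimated counts summed to 37662212 to 44173258 in the baseline libraries and 38255668 to 45350628 in the TAB libraries. Scaling factors for composition did not overlap, at 0.913 to 0.968 at baseline and 1.04 to 1.093 after TAB. Transcript length minus effective length, which follows the fragment length of a library, was 161.3 to 163.2 bases at baseline and 165.4 to 166 bases after TAB. The groups did not overlap in this measure either, and its part in the results was not tested. Expression correlated across transcripts at r = 0.966 to 0.968 between baseline libraries and at r = 0.962 to 0.967 between TAB libraries, where transcripts are not independent replicates. The median coefficient of variation among 5406 transcripts of at least 10 TPM was 6.38% at baseline and 7.15% after TAB.

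Banding was accompanied by changes in 2401 transcripts, of which 1257 rose and 1144 fell. Of the 38810 transcripts tested, 6.19% passed an adjusted p of 0.05 in edgeR's quasi-likelihood test with Benjamini-Hochberg adjustment, 3.24% in the higher direction and 2.95% in the lower. In a single draw of simulated counts the share of false calls by this test ran above the nominal 0.05. That draw does not give the share of false calls in these data. The rises were larger than the falls in their typical size. The median log2 fold change was 0.98 among transcripts that rose (quartiles 0.62 and 1.74) and -0.63 among those that fell (quartiles -1.03 and -0.44). A change of at least 2-fold was seen in 622 of the transcripts that rose (49.5%) and in 302 of those that fell (26.4%). At least 4-fold was reached by 255 rising and 77 falling transcripts. Changes under 1.5-fold made up 22.4% of the rises and 45.5% of the falls. An unadjusted p under 0.05 was found for 8481 transcripts (21.9%). Levels in CPM (scaled counts relative to library size) did not overlap between the groups for 11747 transcripts (30.3%), 15.8% of those tested being higher and 14.4% lower after TAB.

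Leaving out one library at a time left between 607 and 1239 transcripts past the threshold. The count was 607 without baseline replicate 1, 1239 without baseline replicate 2, 640 without baseline replicate 3, 1121 without TAB replicate 1, 821 without TAB replicate 2 and 883 without TAB replicate 3. The direction of the calls depended on the scaling. Rises made up 52.4% of the calls with composition scaling, 82.8% when libraries were scaled by their totals alone and 91.9% in limma on log2(TPM + 1). Scaling by totals moved the median log2 difference of all tested transcripts from 0.01 to 0.19, and the TPM scale moved it to 0.16. No transcript called both in the main test and under another setting changed its direction. The settings reuse the same libraries, so this is no independent support for the calls.

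**Figure D1:**
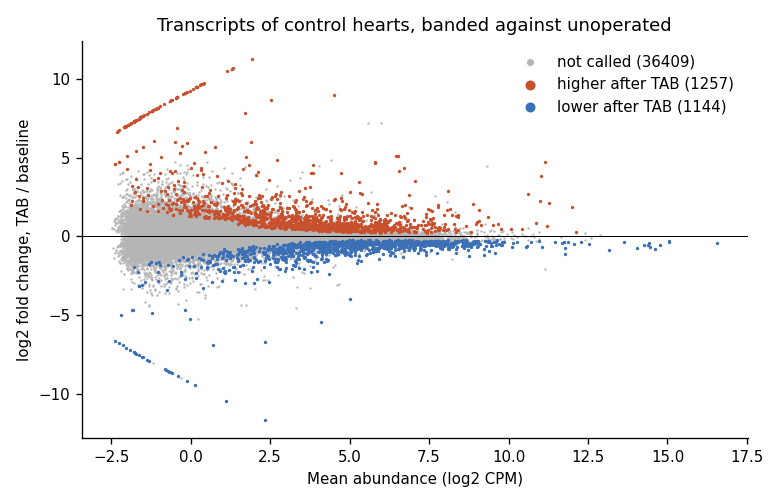
Log2 fold change (TAB over baseline, y axis) against mean log2 CPM (x axis) of the 38810 tested transcripts, with those that passed edgeR's test in colour. The median log2 fold change was 0.98 among the 1257 rises and -0.63 among the 1144 falls. With composition scaling, falls gather among the most abundant transcripts.

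The direction of change differed with abundance. Among 15477 transcripts under 1 TPM, 254 rose and 95 fell, and 2.25% were called in all. From 1 to 10 TPM, 538 of 17927 rose and 433 fell. From 10 to 100 TPM, 391 of 4805 rose and 430 fell, and 17.1% were called. With composition scaling, falls outnumbered rises among the abundant transcripts. The classes were not counted under another scaling, and with library totals alone 2933 transcripts of any abundance rose and 608 fell. From 100 to 1000 TPM, 155 of 543 fell (28.5%) and 67 rose (12.3%). At 1000 TPM and more, 31 of 58 fell (53.4%) and 7 rose (12.1%). The median log2 difference over those 58 transcripts was -0.35, with a median of -0.48 among the members that fell and 1.85 among the 7 that rose. More reads lie behind abundant transcripts, so that smaller differences can pass the test there.

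Within a single abundance class, the share of calls varied less with transcript length. From 10 to 100 TPM, 13.2% of 1102 transcripts under 1000 bases were called and 15.3% of 1312 transcripts of 1000 to 2000 bases. The share was 19.9% of 1590 transcripts of 2000 to 4000 bases and 20.3% of 709 transcripts of 4000 to 8000 bases. It was 14.1% of 92 transcripts of 8000 bases and more. From 4000 to 8000 bases, 52 transcripts rose and 92 fell, while 6 rose and 7 fell at 8000 bases and more. Transcripts of 20000 bases and more were tested in 17 cases, and 1 of them rose, with a log2 fold change of 1.22.

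The most abundant RNAs lost ground as a group. The 20 transcripts of highest mean TPM held 63.03%, 64.13% and 60.63% of all TPM in the baseline libraries and 54.25%, 53.58% and 54.69% in the TAB libraries. All 3 TAB libraries lay below all 3 baseline libraries, with means of 62.6% ± 1.79 and 54.2% ± 0.56 (SD, n = 3 each) and a difference of -8.42 percentage points. An exact two-sided permutation test gave p = 0.1, the smallest value this design allows.

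The loss lay in a group of RNAs picked by length and abundance. RefSeq lists 13 protein-coding genes on the mouse mitochondrial chromosome, and for each of these gene lengths the most abundant deposited transcript of exactly that length was taken. Those 13 transcripts were all among the 14 most abundant in the tables. Taking the most abundant at each length favours a high rank, since 628 of the 96626 transcripts (0.65%) have one of these lengths. Equal length does not pair a transcript with a gene, and this set, called transcripts of mitochondrial gene length below, was formed after the values were seen. Their summed share of TPM was 54.97%, 56.1% and 52.37% at baseline and 44.57%, 43.46% and 45.5% after TAB. The groups did not overlap, and the share was lower by 9.97 percentage points, from 54.5% ± 1.91 to 44.5% ± 1.02 (SD, n = 3). The other 7 transcripts of the 20 held 8.12% ± 0.127 of TPM at baseline and 9.67% ± 0.466 after TAB. TPM sums to a fixed total, so a lower share of the 13 raises the share of all other transcripts together.

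**Figure D2:**
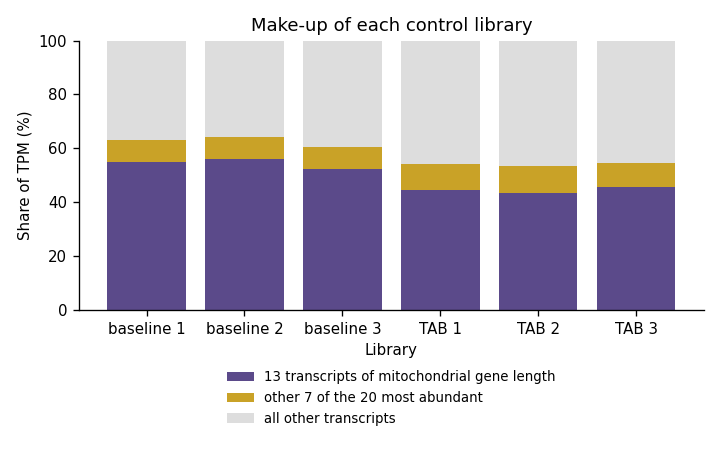
Share of TPM (percent, y axis) held in each of the 6 libraries by the 13 transcripts of mitochondrial gene length, the other 7 of the 20 most abundant transcripts and all remaining transcripts. The first class takes 52.37% to 56.1% of the baseline libraries and 43.46% to 45.5% of the TAB libraries.

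Of these 13 transcripts, 12 fell, none rose and 1, of 348 bases, did not pass. Their median log2 fold change was -0.56, against 0.01 over all tested transcripts. The 12 falls ran from -0.32 for the transcript of 1144 bases to -1.13 for the transcript of 204 bases, with edgeR adjusted p-values of 0.0062 to 0.0262. Among the other 45 transcripts of 1000 TPM and more, 19 also fell (42.2%), 7 rose and the median log2 fold change was -0.24. The sets are not matched in abundance, since the 13 were all among the 14 most abundant. No test of the difference between these sets was run. The groups did not overlap in CPM for 13 of the 13, against 30.3% of all tested transcripts, 14.4% being lower after TAB. Every called transcript in the comparison was without overlap in CPM, so this adds nothing for the 12 that fell. In TPM the groups did not overlap for 9 of the 13, and the share over all transcripts was not computed.

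The transcript of 204 bases, the shortest of the set, had 75380, 82240 and 72974 TPM at baseline and 44264, 49187 and 40359 TPM after TAB. Every TAB library was below every baseline library, and the transcript fell by 1.13 on the log2 scale (SE 0.11, edgeR adjusted p = 0.0062). The effective length used for it was 63.8 ± 0.163 bases at baseline and 62.2 ± 0.251 bases after TAB (SD, n = 3), a divisor of TPM that does not enter the count test. A transcript of 684 bases had 64594, 63907 and 58692 TPM at baseline and 44094, 37069 and 50307 TPM after TAB, and fell by 0.83 (SE 0.12, edgeR adjusted p = 0.0176). Its TAB libraries differed from each other more than its baseline libraries did. A transcript of 1038 bases was tight in both groups, at 24302 ± 1396 TPM and 18219 ± 195 TPM (SD, n = 3), and fell by 0.73 (SE 0.08, edgeR adjusted p = 0.00796).

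The falls were smaller toward the other end of the set. The transcript of 1378 bases had 27884 ± 674 TPM at baseline and 23173 ± 416 TPM after TAB, and fell by 0.58 on the log2 scale (SE 0.06, edgeR adjusted p = 0.00784). The transcript of 1824 bases had 15769 ± 817 and 13150 ± 779 TPM, and that of 957 bases 30143 ± 1471 and 25502 ± 1595 TPM. Those of 297, 519, 681 and 784 bases had log2 fold changes between -0.37 and -0.48. The transcript of 1144 bases had 39715, 38800 and 38294 TPM at baseline and 40058, 37342 and 39042 TPM after TAB, which overlap. Its fall of -0.32 (SE 0.05, edgeR adjusted p = 0.0241) is a log2 difference of scaled counts, and the same difference was 0 on the log2(TPM + 1) scale in limma.

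Because scaling moves all members of a library together, the 13 were also set against each other within each library. The TPM of each was divided by that of the 1144-base transcript, the member with the smallest log2 fold change, a choice made after the values were seen that favours lower ratios. The ratio for the 204-base transcript was 1.90, 2.12 and 1.91 at baseline and 1.11, 1.32 and 1.03 after TAB, a drop in the mean of 41.7%. For the 684-base transcript the mean ratio dropped by 29.6%, for the 1038-base transcript it dropped by 24.8% and for the 784-base transcript it dropped by 3.51%. For the 1545-base transcript it dropped by 5.68%, and its ratios overlapped between the groups. These ratios are a description, and no test supports a ranking of the members by them.

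**Figure D3:**
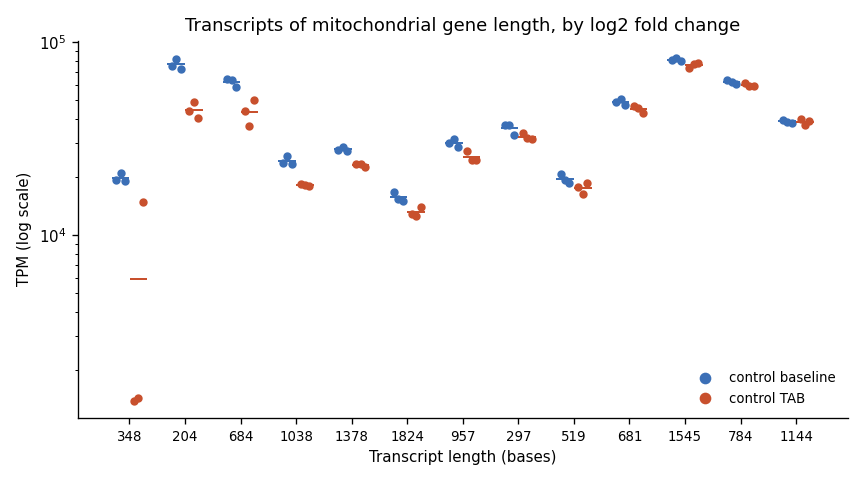
Levels of the 13 transcripts of mitochondrial gene length in the 6 libraries, each labelled by its length in bases, with baseline and TAB libraries as separate points. The 204-base transcript shows the widest separation among the 12 that fell, and the 348-base transcript is split within the TAB group.

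How many of the 13 passed depended on the libraries, the scaling and the filter. The count that fell was 3 without baseline replicate 1, 6 without baseline replicate 2, 12 without baseline replicate 3, 5 without TAB replicate 1, 4 without TAB replicate 2 and 6 without TAB replicate 3. It was 9 with library totals, 8 with no filter and 1 in limma on log2(TPM + 1), and none rose in any setting that tested them.

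The 348-base transcript behaved unlike the other 12. It had 19382, 21144 and 19195 TPM at baseline, 1383 and 1437 TPM in TAB replicates 1 and 2, and 14854 TPM in TAB replicate 3. The nearest in length among abundant transcripts outside the set, of 345 bases and chosen after its values were seen, showed the reverse, with 483, 43 and 398 TPM at baseline and 12800, 12343 and 30 TPM after TAB. Neither passed edgeR's test, with adjusted p = 0.278 and 0.229, and without TAB replicate 3 the 348-base transcript had a log2 fold change of -4.15 and an adjusted p of 0.00381. Added together, the pair had 19864, 21187 and 19592 TPM at baseline and 14183, 13780 and 14884 TPM after TAB. The sums did not overlap between the groups, and they differed far less among TAB libraries than either transcript did. The 348-base transcript held 97.6% to 99.8% of the sum at baseline, and 9.75%, 10.4% and 99.8% after TAB. The estimated counts of a pair of transcripts are divided between them where reads match both, and whether reads match both of these was not tested.

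A second pair, of equal length at 681 bases, also shifted in its shares. The more abundant one held 95.1%, 94.1% and 90.5% of the sum at baseline and 72.5%, 68.5% and 83.8% after TAB. Whether reads match both members was not tested here either. The more abundant one belongs to the 13 and fell by 0.43 on the log2 scale (SE 0.07, edgeR adjusted p = 0.0234). The other, ENSMUST00000188231.1, showed the largest gain of any called transcript in CPM. It had 2528, 3172 and 4957 TPM at baseline and 17858, 21138 and 8361 TPM after TAB, and its log2 fold change was 1.85 (SE 0.39, adjusted p = 0.0465 in edgeR). Both members had their lowest TAB value in replicate 3. This call was lost in 7 of 16 alternative settings, with adjusted p-values up to 0.161 and log2 fold changes of 1.56 to 2.15, and was lost without any one library other than TAB replicate 3. The pair's sums were 51783, 54151 and 52261 TPM at baseline and 64934, 67008 and 51487 TPM after TAB, so the sum was higher than at baseline in TAB replicates 1 and 2 and below the baseline libraries in replicate 3.

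**Figure D4:**
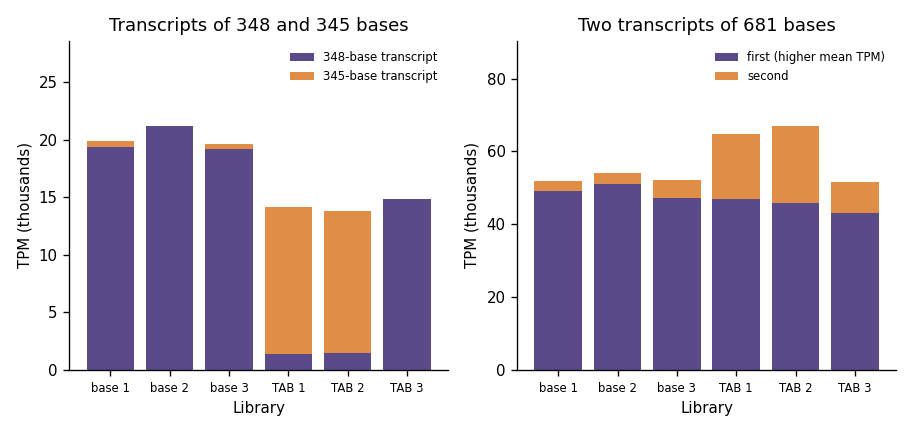
TPM (y axis, stacked bars, in units of 1000 TPM) of 2 pairs of transcripts in the 6 libraries, one pair of 348 and 345 bases and one pair that are both 681 bases long. In the first pair the 348-base transcript holds 9.75% and 10.4% of the sum in TAB replicates 1 and 2 and 99.8% in replicate 3.

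The largest loss in CPM was that of ENSMUST00000082402.1, 1545 bases long and the most abundant transcript of all. It had 81292, 83322 and 79980 TPM at baseline and 73812, 77361 and 78530 TPM after TAB. The groups did not overlap, and its log2 fold change was -0.40 on scaled counts (SE 0.06, edgeR adjusted p = 0.0218). It passed in 6 of 15 alternative settings, and was at -0.09 in limma on TPM. Of the 10 largest losses in CPM, 9 were transcripts of mitochondrial gene length. The remaining 1 was a transcript of 6053 bases, with 5122, 4326 and 5121 TPM at baseline and 3637, 3972 and 3322 TPM after TAB (log2 fold change -0.72, SE 0.08, edgeR adjusted p = 0.00919). It passed in 14 of 16 alternative settings and missed the threshold in limma on log2(TPM + 1), with an adjusted p of 0.0518.

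Outside that set, several transcripts went from low or moderate to high levels. They are named by length, were the largest gains in CPM or the largest folds among transcripts of at least 10 TPM, and were chosen after their values were seen. A transcript of 865 bases had 157, 302 and 253 TPM at baseline and 7776, 9087 and 6708 TPM after TAB. It rose 26.6-fold (log2 fold change 4.73, SE 0.30, edgeR adjusted p = 0.0027), which put it among the abundant RNAs of the banded ventricle. A transcript of 6139 bases had 58, 39.4 and 40.9 TPM at baseline and 675, 686 and 1108 TPM after TAB, a rise of 14.5-fold (log2 fold change 3.85, SE 0.27, edgeR adjusted p = 0.00334). A transcript of 2419 bases was even within both groups, at 81.4 ± 10.2 TPM and 423 ± 26.9 TPM (SD, n = 3), and rose by 2.07 on the log2 scale (SE 0.11, edgeR adjusted p = 0.0023). All 3 passed in 16 of 16 alternative settings.

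Other gains were less stable. A transcript of 1765 bases had 594 ± 259 TPM at baseline and 3154 ± 733 TPM after TAB (SD, n = 3; log2 fold change 2.08, SE 0.39, adjusted p = 0.0319 in edgeR), and passed in 11 of 16 settings. Its call was lost when any library except baseline replicate 2 was left out, with adjusted p-values of 0.0577 to 0.125. A transcript of 1433 bases had 327 ± 199 and 2688 ± 640 TPM (log2 fold change 2.71, SE 0.52, adjusted p = 0.0354 in edgeR) and passed in 10 of 16, and leaving out any library except baseline replicate 2 again ended the call (0.0572 to 0.134). A long transcript of 11979 bases had 60.2 ± 18.5 and 358 ± 80.5 TPM (log2 fold change 2.25, SE 0.29, edgeR adjusted p = 0.0125). It missed the threshold without baseline replicate 1 (0.0551) or baseline replicate 3 (0.0602).

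Large folds were mostly rises where TPM, averaged over both groups, was 10 or more. In this set, 465 transcripts rose and 616 fell. Such an average can come from either group alone, so members with large folds can be at a low level in the other group. The 6769-base rise had 0.641 TPM at baseline and 20.3 TPM after TAB, and the 2004-base fall had 34.1 and 2.7 TPM (group means). Of the 465 rises and 616 falls, 112 rises and 49 falls were at least 2-fold. At least 4-fold was reached by 30 rises and 3 falls, and at least 8-fold by 13 rises and 1 fall.

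3 transcripts of nearly equal length were in that upper range. One of 3189 bases had 2.95, 0.68 and 1.6 TPM at baseline and 83.6, 80.6 and 58.1 TPM after TAB (log2 fold change 5.11, SE 0.51, edgeR adjusted p = 0.00654). One of 3205 bases had 2.46, 1.24 and 1.39 TPM and then 86, 71.6 and 56.8 TPM (5.09, SE 0.31, 0.0027). One of 3198 bases had 1.56, 1.37 and 1.17 TPM and then 57.8, 41.9 and 35.3 TPM (4.73, SE 0.23, 0.0023). In each of them the lowest TAB library lay far above the highest baseline library, and TAB replicate 3 was the lowest of the banded libraries. Whether reads are shared between these 3 was not tested. A transcript of 6769 bases had 0.535, 0.843 and 0.544 TPM at baseline and 17.9, 25.2 and 17.7 TPM after TAB, and one of 4153 bases had 1.89, 2.83 and 2.98 TPM and then 45.1, 70 and 53.9 TPM. Both were highest in TAB replicate 2, and all 5 transcripts passed in every one of 16 alternative settings. A transcript of 2425 bases rose from 1.39 ± 0.13 to 27.5 ± 13.8 TPM, with 15.6, 24.4 and 42.6 TPM in the TAB libraries, so that its spread was wide after banding (log2 fold change 4.0, SE 0.41, edgeR adjusted p = 0.00723).

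A transcript of 806 bases was nearly absent at baseline and uneven after TAB. It had estimated counts of 1, 2 and 0 at baseline and 678, 749 and 100 after TAB, or 0.0391, 0.0748 and 0 TPM and then 32.5, 30.8 and 4.52 TPM. The ratio of the scaled totals was 452, with an exact 95% interval of 154 to 2190 that covers counting error only, and the transcript rose in edgeR's test (adjusted p = 0.0142). Its adjusted p was 0.0721, 0.0543 and 0.0676 without baseline replicates 1, 2 and 3.

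**Figure D5:**
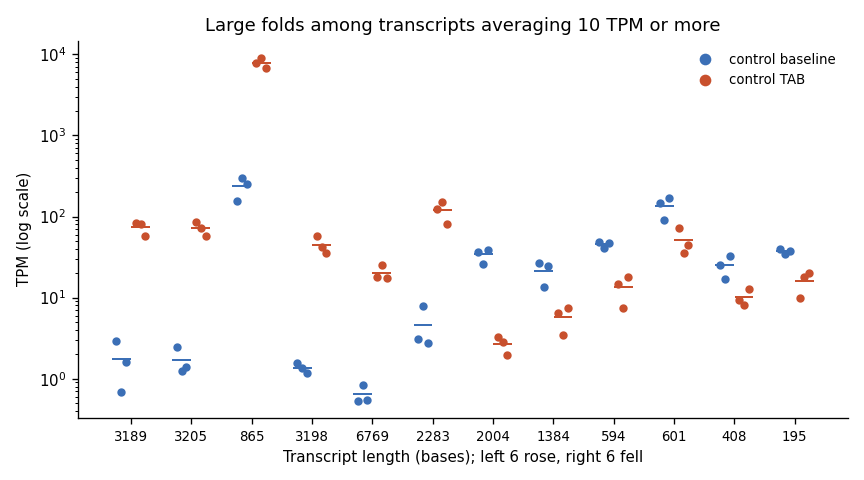
TPM (log axis) in the 6 libraries of 6 transcripts that rose and 6 that fell, among those with the largest log2 fold changes at 10 TPM or more on average, labelled by length in bases, with points for libraries and bars for group means. The rises shown span log2 fold changes of 4.36 to 5.11 and the falls -1.55 to -3.96.

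The strongest fall among transcripts of at least 10 TPM was in one of 2004 bases. It had 36.9, 26.3 and 39 TPM at baseline and 3.3, 2.84 and 1.95 TPM after TAB, 15.6-fold lower (log2 fold change -3.96, SE 0.22, edgeR adjusted p = 0.00241). It passed in 16 of 16 alternative settings, and the next fall in size was -2.18. A transcript of 1261 bases had 81.4, 65.4 and 98.8 TPM at baseline and 31.7, 39.9 and 41.3 TPM after TAB (-1.42, SE 0.16, edgeR adjusted p = 0.00835). A transcript of 1724 bases fell from 19.2 ± 3.92 to 8.39 ± 1.30 TPM (SD, n = 3; -1.50, SE 0.16, edgeR adjusted p = 0.00795), and also passed in 16 of 16. Transcripts of 1384, 594 and 601 bases fell, with log2 fold changes of -2.18, -2.08 and -1.73. Each of those calls was lost without baseline replicate 1 or without baseline replicate 3 (edgeR adjusted p from 0.0627 to 0.0963), and without at least 1 TAB library.

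Some transcripts were listed at or near 0 in one group only. ENSMUST00000089752.10, of 8190 bases, had estimated counts of 0.000159, 0.0304 and 0.000731 at baseline and 535, 114 and 316 after TAB, or 12.8, 2.42 and 7.29 CPM. The TAB libraries differed among themselves by several fold, and the transcript was at least 97.5-fold higher than a floor of 3 counts in each baseline library (edgeR adjusted p = 0.0262). It was the rise of largest log2 fold change under the naming rule, but missed the threshold in 6 of 16 settings, with adjusted p-values up to 0.0945, among them the removal of any library except TAB replicate 2. ENSMUST00000141740.7, of 5236 bases, had estimated counts of 500, 296 and 372 at baseline and below 1 in every TAB library. It was at least 146-fold lower than at baseline by the same floor (edgeR adjusted p = 0.00488), and passed in 15 of 16 settings.

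Transcripts at an exact 0 in one group were faint in the other. Neither of the 2 transcripts just named meets this stricter rule, so the numbers below leave out patterns near 0 like theirs. The rule asked for an exact 0 in all 3 libraries of one group and at least 10 estimated counts in each library of the other. Of the 38810 tested transcripts, 42 were present after TAB only and 17 at baseline only. The present level had a median of 0.439 TPM in the first set and 0.356 TPM in the second, and never exceeded 3.22 TPM. An estimated count of 0 for one transcript can also arise when shared reads are assigned to another, which was not tested.

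The number of transcripts detected was higher after TAB, and one count of them depended on the 13 abundant transcripts. An estimated count above 0 was listed for 57003, 56586 and 56066 transcripts at baseline and for 58335, 58692 and 58371 after TAB, without overlap. The number of transcripts at 1 TPM or more was 22566, 21590 and 23001 at baseline and 25562, 24660 and 24719 after TAB, without overlap. When TPM was computed without the 13 transcripts of mitochondrial gene length, the numbers were 31433, 30605 and 31319 against 32659, 31286 and 31714, which overlap. The mean transcript length weighted by TPM was 1245 ± 22.2 bases at baseline and 1352 ± 11.2 bases after TAB with the 13, and 1723 ± 8.91 and 1717 ± 24.5 bases without them. The groups overlapped in the number at 1 TPM or more and in mean length once the 13 were left out. Leaving out 13 transcripts can hardly change the number with a count above 0, so that number cannot show whether it depends on them. The 13 held 34.5% of estimated counts at baseline and 27.5% after TAB, so other transcripts took a larger share after TAB. Its part in the number detected was not tested.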

How the data were processed

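Per the labels, stranded libraries were made from polyA RNA of mouse left ventricle. The deposited tables give, per the file headers, an estimated count, an effective length and a TPM value for each transcript, printed with 6 significant digits. Tools and a build listed without roles in the submitters' processing notes are kallisto 0.42.5, MACS 1.4.2, Bowtie2 2.2.5, cutadapt 1.8.1, FastQC 0.11.3 and mm10. The transcript annotation is not given in the sources used here.

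Estimated counts were rounded and tested per transcript in edgeR 4.0.16 (R 4.3.3), with the quasi-likelihood test, TMM scaling and group as the only term (4 residual degrees of freedom). The filterByExpr filter kept 38810 transcripts and removed 57816. A Benjamini-Hochberg adjusted p under 0.05 was the threshold. Values per library were compared by exact two-sided permutation over 20 splits, whose smallest p is 0.1. The procedure was tested on a single draw of simulated counts, where false calls ran above the nominal level.

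Alternatives used other scalings and filters, DESeq2 1.42.0, limma 3.58.1 on log2 TPM with a pseudocount of 1 or 0.1, all 12 RNA-seq libraries, a replicate block, each library left out, whole counts alone and the 13 abundant transcripts left out. The last pair was added after the data were seen. Identifiers were printed for the called transcripts with the largest log2 change (mean log2 CPM of at least 1, groups not overlapping) and the largest CPM change in each direction. Members and lists were chosen with earlier results of these data known. None of the 96626 identifiers matched the gene tables used here (0 matched), so 36 gene and cell type lists and a test per gene could not be run, and no sequence is shown. Mitochondrial gene lengths came from RefSeq (GRCm38.p6). No replicate libraries agreed within sampling noise. ChIP-seq samples were not analysed here.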

Additional observations from a re-analysis of the deposited data

How the results depend on the processing

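Of 2401 calls (1257 higher, 1144 lower), DESeq2 made 4587 (2348 and 2239), limma on log2(TPM + 1) 6558 (6030 and 528), limma on log2(TPM + 0.1) 6276 (5790 and 486) and edgeR on all 12 RNA-seq libraries 3722 (1798 and 1924). Library totals gave 3541 (2933 and 608), no filter 1674 (849 and 825) and whole counts alone 639 (315 and 324) of 2406 tested. Leaving out one library gave 607 to 1239 calls, 319 to 679 higher and 288 to 560 lower. Size factors of another kind (2371), a filter of 1 CPM (3023) and leaving out the 13 abundant transcripts before scaling (2366) stayed within 1.5 times the main count.

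Deviations from the group mean correlated at 0.04, 0.09 and -0.04 between same-numbered replicates over 19387 transcripts. Between differently numbered replicates the correlations ran from -0.09 to 0.05. With 3 libraries per group, these correlations cannot decide whether the numbers pair the libraries. A fit with the replicate block gave 617 calls (333 higher, 284 lower), 581 of them shared with the main test. Under the block, 4 of the 13 transcripts of mitochondrial gene length were called lower, and the 6053-base transcript had an adjusted p of 0.0596 in edgeR. The difference in the share of the 20 most abundant transcripts was -6.46 points over counts and -6.2 points for the top 100. The difference in weighted mean length of 108 bases became -6.49 bases without the 13. Estimated counts were whole in all 6 libraries for 6.23% of tested transcripts. A test per gene was not run.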
